A study of Mus musculus with 2 samples.

Results

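The genes described here are the Hox genes, the homeobox transcription factors of the 4 clusters named A to D. They were taken as every gene whose symbol in the platform annotation is Hox, a letter from a to d and a number, read only from probe sets that carry that symbol alone. This gave 31 genes on 37 probe sets, out of 12393 genes on the array and out of 39 such Hox genes in the mouse reference table. Hox A and Hox B had 9 genes each, Hox C had 6 and Hox D had 7. The other 8 are not analysed here as genes of their own. The rule that picks the genes reads symbols and no signal.

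The samples were 2 stable transfectants of LM8, an osteosarcoma cell line of the mouse, each run on a single Affymetrix array. The hPHD4 clone carried the full-length cDNA of human prolyl hydroxylase domain protein 4 in the pcDNA3.1 vector, and the control clone carried the same vector empty. Both were kept under 0.5 mg/ml G418, and 5 µg of total RNA was labelled with biotin. Each group is 1 clone on 1 array, so replicates are lacking and nothing could be tested. A difference between the clones cannot be told apart from one between any pair of LM8 clones, cultures or arrays.

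Hox genes encode DNA-binding proteins that set the identity of body segments along the head-to-tail axis and along the limb. Within a cluster the genes lie in order of paralogue number: low numbers are used early and far forward in the embryo, high numbers late and towards the tail or the limb tip. Genes with the same number in different clusters are paralogues, copies descended from 1 ancestral gene. Connective tissue and bone-forming cells of the adult keep a Hox pattern that reflects where in the body they arose, held in place by the Polycomb repressor and Trithorax activator complexes. Hox proteins bind DNA together with cofactors of the Pbx, Meis and Pknox families.

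Signals are MAS5 values deposited on the log2 scale. The 40th percentile of each array served as a floor for background, at a linear signal of 81.1 in the hPHD4 clone against 67.8 in the control clone. The floors differed by 0.26 on the log2 scale, since dim probe sets were brighter on the hPHD4 array. The label of the cells was checked against osteoblast markers: all 7 of those with a probe set were above the floor in both clones, among them Sp7, an osteoblast transcription factor, at 3039 in the hPHD4 clone against 2588 in the control clone. They were not all alike in the clones: Ibsp, bone sialoprotein, had 263 in the hPHD4 clone against 124 in the control clone, a log2 ratio of 1.09 with probe sets at 1.56 and 0.61. Of 48 markers of 7 other cell types with a probe set, 13 were above the floor in both clones. The share over all genes on the array, beside both marker counts, was 60.1%. Among the 13 were 3 of 6 chondrocyte markers, with Col2a1 bright at 1766 in the hPHD4 clone against 1188 in the control clone. Past 1.5-fold in either direction were 3 of the 13, where 14.2% of all measured genes were. They were Fcer1g, of leukocytes, at 107 in the hPHD4 clone against 979.8 in the control clone, Acta2, of smooth muscle, at 5385 in the hPHD4 clone against 15193 in the control clone, and Col9a1, of cartilage, at 417 in the hPHD4 clone against 187 in the control clone. The part of these and the Ibsp difference in the Hox results was not tested. No probe set was assigned to P4htm, the mouse gene for PHD4, alone, and the array was designed for mouse transcripts, so the labels of the clones were not checked.

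Of the 31 Hox genes, 13 lay above the floor in both clones, 1 in the hPHD4 clone alone and 17 in neither. That is 41.9%, where 60.1% of all genes on the array were above the floor in both clones. The measured genes came from Hox A (4 of 9), Hox B (5 of 9) and Hox C (4 of 6), and 0 of 7 from Hox D. They were Hoxa5, Hoxa7, Hoxa9, Hoxa10, Hoxb2, Hoxb4, Hoxb6, Hoxb9, Hoxb13, Hoxc4, Hoxc6, Hoxc8 and Hoxc9. A gene under the floor was not detectable in this way, which does not show that it was off: probe sets differ in how well they bind their target. In bulk RNA, fewer cells with a transcript and less of it per cell cannot be told apart.

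**Figure D1:**
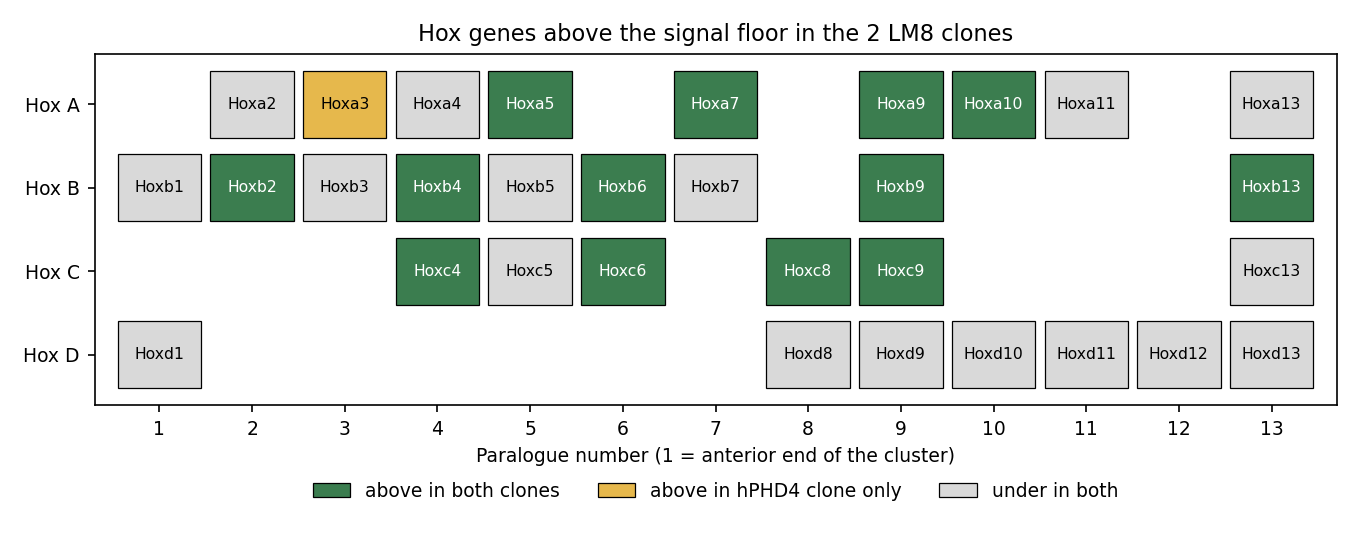
Hox genes by cluster (down) and paralogue number (across). Green genes were above the signal floor in both clones, yellow only in the hPHD4 clone, and grey in neither; the 13 green genes lie in Hox A, B and C, 8 of them numbered 5 to 9, and 0 lie in Hox D.

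By paralogue number, 8 of 13 genes numbered 5 to 9 were above the floor in both clones (61.5%, close to the 60.1% of all genes), with 3 of 9 numbered 1 to 4 (33.3%) and 2 of 9 numbered 10 to 13 (22.2%). This order depended on the floor. With the floor at the 20th percentile, a count added after the values were seen, 8 of 9 genes numbered 1 to 4 were above it in both clones, 9 of 13 numbered 5 to 9 and 3 of 9 numbered 10 to 13. Of all 12393 genes on the array, 9613 were above that lower floor in both clones. Paralogue group 9 had 3 of 4 genes above the floor, in Hox A, B and C, and group 6 had both of its genes with a probe set, Hoxb6 and Hoxc6. Groups 1, 3, 11 and 12 had no gene above the floor in both clones. In Hox A the measured genes ended at Hoxa10, with Hoxa11 and Hoxa13 under the floor.

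The promoters of 4 genes, from RefSeq on build GRCm38.p6, are shown because they stand for the contrasts that follow. They are Hoxa7, the Hox A gene with the highest ratio between the clones, Hoxc4, the gene with the lowest ratio, and the paralogues Hoxa9 and Hoxd9, of which the first was above the floor in both clones and the second in neither. Each runs 5′ to 3′ on the strand of the gene from 250 bases before its start to 50 after it, with CpG dinucleotides in capitals.
Hoxa7 promoter, chr6:52218524-52218823, minus strand: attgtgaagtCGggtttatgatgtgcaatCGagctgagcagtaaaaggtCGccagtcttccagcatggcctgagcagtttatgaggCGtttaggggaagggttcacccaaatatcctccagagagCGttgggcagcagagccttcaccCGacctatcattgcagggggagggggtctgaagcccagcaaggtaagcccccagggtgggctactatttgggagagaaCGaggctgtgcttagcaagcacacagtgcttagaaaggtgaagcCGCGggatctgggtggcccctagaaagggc
Hoxc4 promoter, chr15:103034145-103034444, plus strand: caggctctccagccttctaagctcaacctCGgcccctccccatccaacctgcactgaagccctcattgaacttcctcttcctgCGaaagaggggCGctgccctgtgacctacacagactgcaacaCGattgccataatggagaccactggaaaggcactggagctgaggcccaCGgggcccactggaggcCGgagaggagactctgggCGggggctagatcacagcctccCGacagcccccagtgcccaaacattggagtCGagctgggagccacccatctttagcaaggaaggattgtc
Hoxa9 promoter, chr6:52227321-52227620, minus strand: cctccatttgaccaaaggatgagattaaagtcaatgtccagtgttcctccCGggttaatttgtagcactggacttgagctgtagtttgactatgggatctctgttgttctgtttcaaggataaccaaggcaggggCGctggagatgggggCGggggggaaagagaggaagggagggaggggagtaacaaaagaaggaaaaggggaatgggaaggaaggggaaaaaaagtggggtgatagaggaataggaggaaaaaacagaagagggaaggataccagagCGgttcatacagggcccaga
Hoxd9 promoter, chr2:74697513-74697812, plus strand: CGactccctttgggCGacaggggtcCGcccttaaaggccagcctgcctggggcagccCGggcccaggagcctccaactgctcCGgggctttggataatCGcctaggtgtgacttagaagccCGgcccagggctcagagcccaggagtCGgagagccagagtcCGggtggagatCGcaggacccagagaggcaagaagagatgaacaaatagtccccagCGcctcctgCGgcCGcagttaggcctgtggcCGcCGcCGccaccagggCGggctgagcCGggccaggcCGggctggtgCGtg

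The 300 bases of Hoxd9 held 20 CpGs, those of Hoxa7 and Hoxc4 held 9 each and those of Hoxa9 held 4. Promoter sequences were listed for 18 of the 31 Hox genes, 20 promoters in all because Hoxa10 and Hoxd11 have 2 each. Their median was 14.5 CpGs, against 7 over 32841 promoters of all genes. The 12 promoters of 11 genes under the floor in both clones had a median of 17.5 CpGs (range 4 to 45) and the 7 promoters of 6 measured genes 12 (range 4 to 29), so the ranges overlapped. Among Hox D promoters the median was 21.

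Short motifs were searched in these promoters on both strands. ACGTG or GCGTG, the core bound by hypoxia-inducible factors, which PHD-type hydroxylases regulate, was present in 3 of the 7 promoters of measured Hox genes (42.9%) and in 8 of the 12 of genes under the floor in both clones (66.7%), against 43.8% of all promoters. Both forms of this core hold a CpG, and the Hox promoters had a median of 14.5 CpGs against 7 over all promoters. The part of CpG content in these shares was not tested. AGGTCA, the half-site of retinoic acid receptors and related nuclear receptors, was present in 5 of the 20 Hox promoters (25%) against 16.3% of all promoters; the 3 measured genes with it were Hoxa5, Hoxb4 and Hoxc4. TGATNNAT, a form bound by Hox proteins together with Pbx, was present in 3 of the 20 (15%) against 8.85%, and in none of the 7 promoters of measured genes. In the sequences printed above, Hoxd9 held GCGTG 46 bases after its start and Hoxc4 held AGGTCA on the opposite strand, 146 bases before it, while neither Hoxa7 nor Hoxa9 held any of the motifs. None of the motifs contains another, and a match is a run of letters, not a shown binding site.

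**Figure D2:**
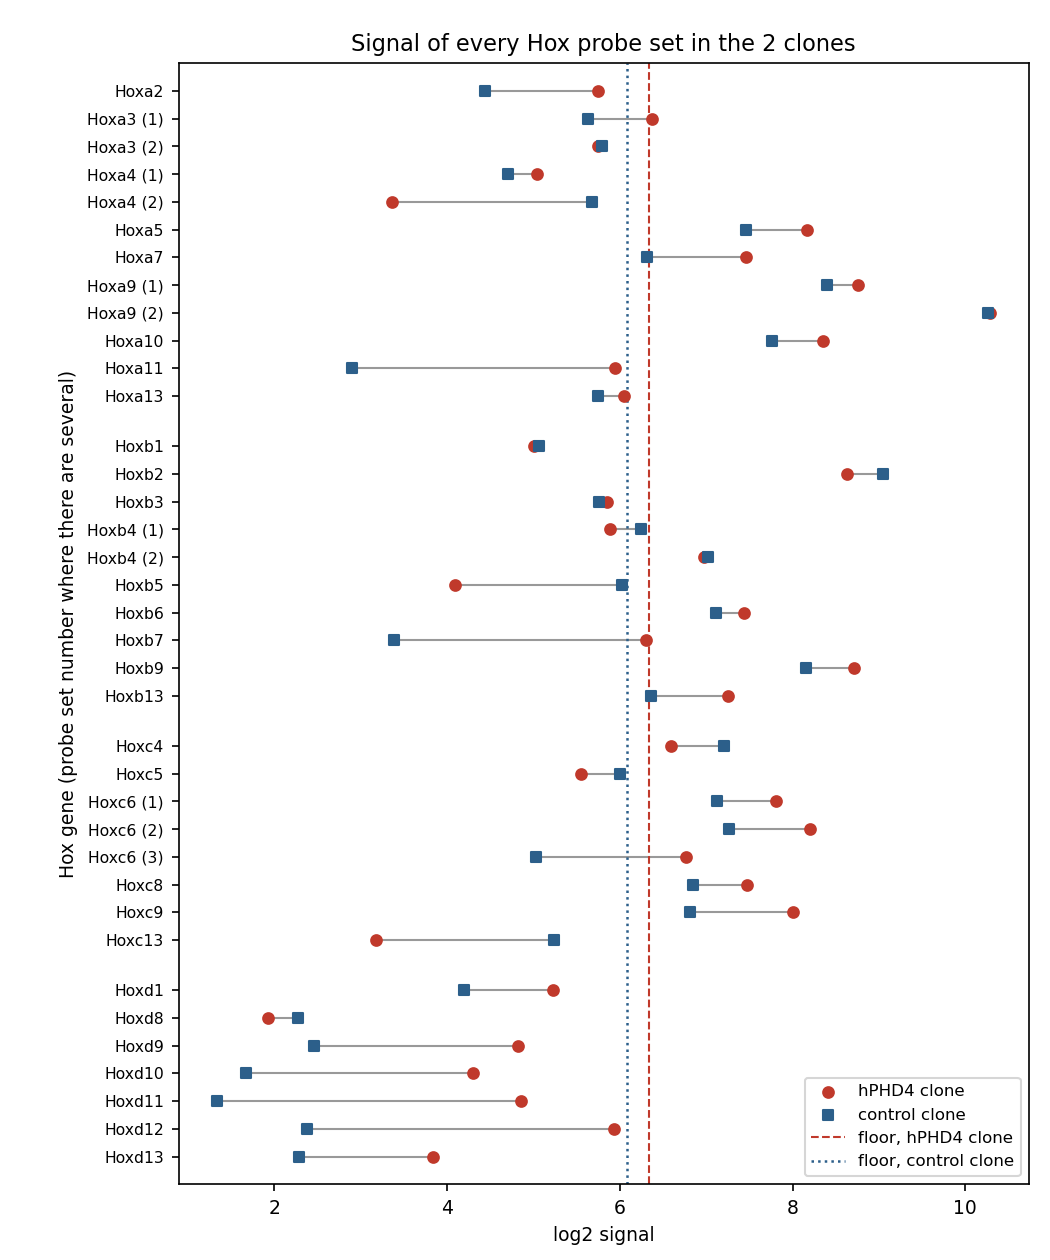
log2 signal of each of the 37 Hox probe sets in the hPHD4 clone (red circles) and the control clone (blue squares), by cluster from A at the top to D at the bottom. The dashed red and dotted blue lines are the floors; all 7 Hox D probe sets lie to the left of both lines.

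Hox A gave its signal from Hoxa5 to Hoxa10. Hoxa9, which acts in axial patterning and in blood stem cells and leukaemia, was the only Hox gene in the brightest of 3 equal groups of measured genes by mean signal. Its 2 probe sets had linear signals of 1253 and 434 in the hPHD4 clone, against 1225 and 337 in the control clone, with log2 ratios of 0.03 and 0.37, hPHD4 clone over control clone. The clones were close on this gene, at a mean ratio of 0.20 (1.15-fold, the hPHD4 clone being higher), within the SD of 0.28 seen between probe sets of 1 gene at its brightness. That SD is taken over 971 genes with several probe sets and stands here in place of a replicate error, covering the error of single probe sets only.

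Hoxa7, a thoracic patterning gene, had a signal of 176 in the hPHD4 clone against 79.7 in the control clone, a log2 ratio of 1.15 or 2.21-fold. The control signal lay just above its floor of 67.8. Hoxa5, needed for lung and for the neck and upper thoracic skeleton, had signals of 288 in the hPHD4 clone against 176 in the control clone, a ratio of 0.71. Hoxa10, which patterns the lumbar vertebrae and the uterus, had signals of 328 in the hPHD4 clone against 218 in the control clone, a ratio of 0.59. The 4 measured Hox A genes all had ratios above 0, and 3 of them passed 1.5-fold. Of all measured genes, 53.6% were above 0 and 8.94% passed 1.5-fold upwards. In the dimmest of the 3 groups by signal these shares were 62.2% and 16.3%. Hoxa9, at 0.20, was within its SD of 0.28. Hoxa10 fell below 1.5-fold after the quantile normalization and the loess correction described below, at 0.54 in each. Hoxa5 and Hoxa7 stayed past it in both. The SD between probe sets was 0.40 for Hoxa5 and Hoxa7, in the dimmest group, and 0.37 for Hoxa10, in the middle group.

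At the front end of Hox A, Hoxa3, of the pharyngeal arches, passed the floor only in the hPHD4 clone. Its brighter probe set there had a signal of 83.0 in the hPHD4 clone against 49.6 in the control clone, at least 1.22-fold higher with the control set to its floor, and the other probe set was under the floor in both, at 53.6 in the hPHD4 clone against 55.5 in the control clone. Hoxa2 (53.6 in the hPHD4 clone against 21.7 in the control clone) and both probe sets of Hoxa4 (32.8 and 10.3 in the hPHD4 clone against 26.1 and 51.4 in the control clone) were under the floors. At the tail end so were Hoxa11, of the forearm and the uterus, at 61.5 in the hPHD4 clone against 7.44 in the control clone, and Hoxa13, of the digits, at 66.0 in the hPHD4 clone against 53.8 in the control clone. Hoxa11os, the antisense RNA of Hoxa11, was under both floors too, at 49.1 in the hPHD4 clone against 39.5 in the control clone.

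In Hox B, ratios ran from below 0 to above it along the cluster. Hoxb2, a gene of the hindbrain segments, had signals of 397 in the hPHD4 clone against 531 in the control clone, a log2 ratio of −0.42. Hoxb4, known for expanding blood stem cells, had 126 in the hPHD4 clone against 129 in the control clone, a ratio of −0.04, and a dimmer probe set of it passed the floor only in the control clone, at 58.9 in the hPHD4 clone against 75.8 in the control clone. Hoxb6, of the lateral mesoderm, had 174 in the hPHD4 clone against 138 in the control clone, a ratio of 0.33. These 3 differences ranged from close to 0 to 1.15 times the SD between probe sets of 1 gene at the same brightness.

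Further along the cluster the ratios were larger. Hoxb9, a thoracic and rib patterning gene, had signals of 419 in the hPHD4 clone against 284 in the control clone, a ratio of 0.56. Hoxb13, the last gene of the cluster and a marker of prostate and hindgut, had 152 in the hPHD4 clone against 82.0 in the control clone, a ratio of 0.89 or 1.86-fold. That rests on its only probe set, whose control signal lay near the floor of 67.8. Hoxb3, Hoxb5 and Hoxb7, which lie among the measured genes, and Hoxb1, at the front end, were under the floor in both clones. Hoxb1, of the hindbrain, had 32.1 in the hPHD4 clone against 33.5 in the control clone, and Hoxb3 had 57.8 in the hPHD4 clone against 54.3 in the control clone. Hoxb7 came closest in the hPHD4 clone, at 79.1 against a floor of 81.1, with 10.5 in the control clone, and Hoxb5 came closest in the control clone, at 17.1 in the hPHD4 clone against 65.2 in the control clone. A probe set shared by Hoxb8 and Hoxb7 was under both floors, at 45.5 in the hPHD4 clone against 22.2 in the control clone.

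Hox C held both the highest and the lowest ratio of all measured Hox genes. Hoxc9, which patterns the thorax and its motor neurons, had signals of 257 in the hPHD4 clone against 113 in the control clone, a log2 ratio of 1.19 or 2.28-fold. That is 2.94 times the SD between probe sets of 1 gene at its brightness. Hoxc4, the first gene of this cluster, had 96.6 in the hPHD4 clone against 148 in the control clone, a ratio of −0.61 or 1.53-fold with the hPHD4 clone lower. Its only probe set lay near the floor of 81.1 in the hPHD4 clone. Within a single cluster the ratios of these genes therefore differed in sign.

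Between them lay Hoxc6 and Hoxc8. Hoxc6, of the thorax and the mammary gland, had 2 measured probe sets with signals of 224 and 294 in the hPHD4 clone, against 140 and 154 in the control clone, at ratios of 0.68 and 0.93. The remaining probe set of Hoxc6 was above its floor only in the hPHD4 clone, at 109, with 32.7 in the control clone. All 3 probe sets were brighter in the hPHD4 clone, the only case of 3 for 1 Hox gene here; the name of the brightest marks it as open to cross-hybridisation. Hoxc8, of the lower thorax and the forelimb motor neurons, had 178 in the hPHD4 clone against 116 in the control clone, a ratio of 0.62. Hoxc5 (46.9 in the hPHD4 clone against 64.1 in the control clone) and Hoxc13, a regulator of hair keratins (9.03 in the hPHD4 clone against 37.6 in the control clone), were under both floors.

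Hox D was under the floor throughout. Its genes include Hoxd9 to Hoxd13, which pattern the limb, and Hoxd1, which acts in sensory neurons of the mouse. Across 7 genes the signals ran from 3.82 to 61.3 in the hPHD4 clone, at the 2.72nd to the 34.2nd percentile of that array, and from 2.53 to 18.3 in the control clone, at the 2.38th to the 19.6th percentile. Hoxd12 was the brightest in the hPHD4 clone, at 61.3, with 5.20 in the control clone. The dimmest there was Hoxd8, at 3.82 with 4.83 in the control clone. Hoxd9 had 28.4 in the hPHD4 clone against 5.49 in the control clone, Hoxd10 had 19.7 in the hPHD4 clone against 3.18 in the control clone, and Hoxd11 had 29.0 in the hPHD4 clone against 2.53 in the control clone. Hoxd1 had 37.4 in the hPHD4 clone against 18.3 in the control clone. Hoxd13, of the digits, had 14.3 in the hPHD4 clone against 4.87 in the control clone. Both probe sets shared by Hoxd3 and Hoxd4 were under the floors as well. With the floor lowered to the 20th percentile, 20 of the 31 Hox genes were above it in both clones, and still 0 of Hox D. Of all 12393 genes, 9613 were above this lower floor. The order of signals under a floor carries no fold change, so none is given.

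Over the 13 measured genes, the median log2 ratio was 0.59, against 0.03 over all 7452 measured genes. It depended on the floor, at 0.34 for 20 genes with the floor at the 20th percentile, 0.20 for 3 genes at the 60th, and 0 over all 31 genes with no filter and 1 common floor. A threshold of 1.5-fold was passed upwards in the hPHD4 clone by 7 of the 13 Hox genes (Hoxa5, Hoxa7, Hoxa10, Hoxb13, Hoxc6, Hoxc8 and Hoxc9), where 8.94% of all measured genes passed it. Downwards, Hoxc4 was the 1 Hox gene past 1.5-fold, where 5.22% of all were. Past 2-fold upwards were Hoxa7 and Hoxc9, 2 of 13, against 1.89% of all measured genes, and 0 Hox genes were past 2-fold downwards, against 0.98%. Past 3-fold there was 0 in either direction, against 0.282% upwards and 0.255% downwards of all. Above 0 lay 10 of 13 Hox genes and 53.6% of all measured genes.

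Brightness moved with these counts, and its part in them was not tested beyond the normalizations given here. Of the 13 Hox genes, 9 were in the dimmest of the 3 groups by signal, where ratios leaned towards the hPHD4 clone: 62.2% were above 0, the median was 0.13, 16.3% passed 1.5-fold upwards and 5.52% downwards, and 3.5% passed 2-fold upwards and 1.29% downwards. Of those 9 Hox genes, 6 passed 1.5-fold upwards, 1 passed it downwards and 2 passed 2-fold upwards, and the median ratio was 0.71. A quantile normalization, which gives both arrays the same distribution, left a Hox median of 0.52, with 5 genes past 1.5-fold upwards and Hoxc9 alone past 2-fold. A correction of the ratio for signal by loess gave a median of 0.53 and the same counts. Hox medians by cluster were 0.65 for the 4 genes of Hox A, 0.33 for the 5 of Hox B and 0.71 for the 4 of Hox C.

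**Figure D3:**
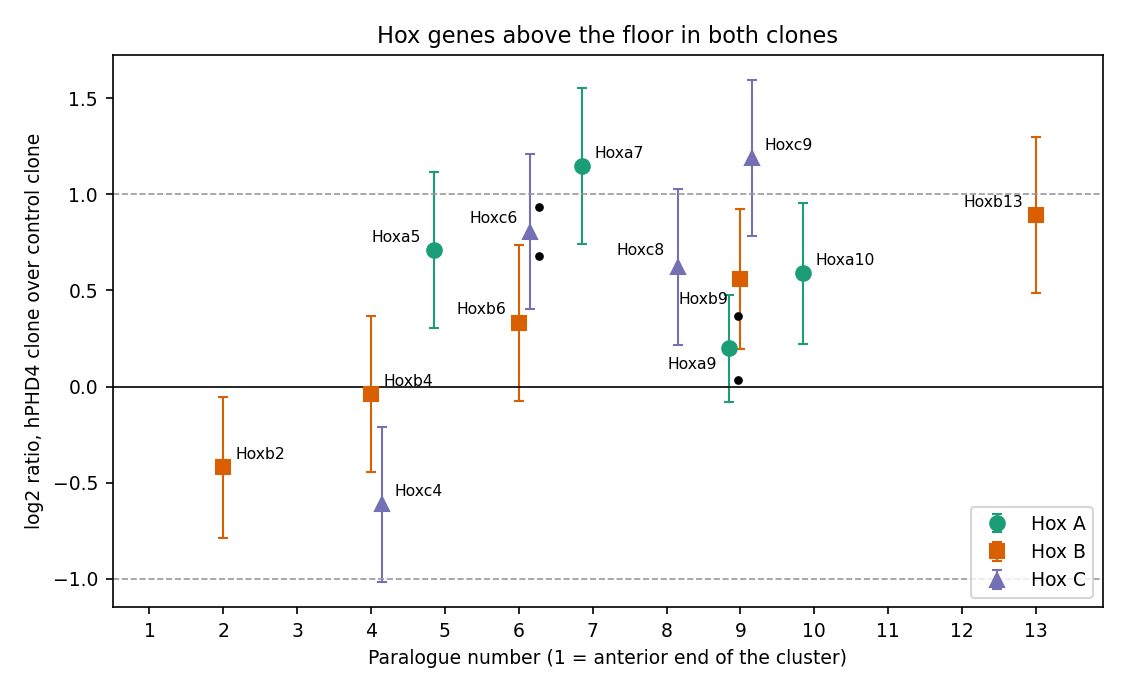
log2 ratio, hPHD4 clone over control clone, of the 13 measured Hox genes against their paralogue number. Points are coloured by cluster, bars are 1 SD between probe sets of a gene of that brightness, small black dots are single probe sets where 2 were measured, and dashed lines mark 2-fold; the 3 genes numbered 2 and 4 lie below 0 and the 10 numbered 5 to 13 above it.

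Among the 13 measured genes the sign of the ratio followed paralogue number, a pattern noticed in the values. Of all measured genes, 53.6% were above 0. Hoxa3, of group 3, is not among the 13, as it passed the floor only in the hPHD4 clone, where it was at least 1.22-fold higher. All 3 measured genes of groups 1 to 4 were below 0 (Hoxb2, Hoxb4 and Hoxc4, median −0.42), although Hoxb4 was within 0.04 of 0, and all 10 of groups 5 to 13 were above it (median 0.67). Across the 13 genes the log2 ratio and the paralogue number had a Spearman's rank correlation of 0.55 and a Pearson's r of 0.64, a description over genes that share the same 2 arrays and lie in 3 clusters. The ratio and the mean signal had a rank correlation of −0.29. In Hox B the 5 measured genes stood in the order of their numbers, with Hoxb2 lowest and Hoxb13 highest, while in Hox A and Hox C they did not.

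The split was less complete with dimmer genes included. With the floor at the 20th percentile, 4 of 8 genes of groups 1 to 4 were below 0 and their median was 0.01, with Hoxa2 at 1.30. In groups 5 to 13 then 11 of 12 genes were above 0, with a median of 0.61, and Hoxc5 lay at −0.45. The rank correlation over those 20 genes was 0.37. With the floor at the 60th percentile only Hoxa9, Hoxb2 and Hoxb9 remained, at 0.20, −0.42 and 0.56. With no filter and 1 common floor, the medians of groups 1 to 4 and 5 to 13 were both 0. Then 3 of 9 genes of groups 1 to 4 were below 0 and 10 of 22 of groups 5 to 13 above it. The rank correlation over those 31 genes was 0.25.

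The microRNAs of the miR-196 family lie between Hox genes and act on Hox transcripts. They are shown because they lie beside Hoxa9, Hoxb9 and Hoxc9, which were above the floor in both clones. The microRNAs were not measured here. Their mature sequences from RefSeq (GRCm38.p6), with the seed (bases 2 to 8) in capitals, differ at 1 base outside the seed.
mmu-miR-196a-5p, chr11:96265187-96265208 and chr15:102973365-102973386, both plus strand: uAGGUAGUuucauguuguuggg
mmu-miR-196b-5p, chr6:52230129-52230150, minus strand: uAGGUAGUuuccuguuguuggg
Mir196a-1 lies between Hoxb13 and Hoxb9, Mir196a-2 between Hoxc10 and Hoxc9, and Mir196b between Hoxa9 and Hoxa10. Of these 6 flanking genes, 5 had a probe set of their own, and all 5 were above the floor in both clones, against 60.1% of all genes. The loci were chosen for lying beside measured Hox genes, so this count is not a separate result.

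The genes next to each cluster were set beside it, as 10 protein-coding genes on each side in the order of the reference table. Around Hox D, 9 of 14 neighbours with a probe set were above the floor in both clones. The share over all genes on the array was 60.1%. Evx2, the homeobox gene that follows Hoxd13, was among them with 104 in the hPHD4 clone against 77.2 in the control clone, a ratio of 0.43, and Mtx2, the neighbour beyond Hoxd1 and a mitochondrial membrane gene, had 1876 in the hPHD4 clone against 1796 in the control clone. Both Evx2 signals lay near the floors, which were 81.1 for the hPHD4 array and 67.8 for the control array. Detectable signal was thus present on both sides of a cluster in which no Hox gene reached the floor. The share of such neighbours was close to that of all genes. Evx1, next to Hoxa13, was under both floors.

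The 38 measured neighbours had a median log2 ratio of 0.02. Of them, 2 passed 1.5-fold upwards in the hPHD4 clone and 1 downwards, where 8.94% and 5.22% of all measured genes did. Those past it were Tril near Hox A, a modulator of Toll-like receptor signalling, at 145 in the hPHD4 clone against 74.9 in the control clone (0.95), Amhr2 near Hox C, the receptor of anti-Müllerian hormone, at 165 in the hPHD4 clone against 99.1 in the control clone (0.74), and Sp1, a general transcription factor near Hox C, at 148 in the hPHD4 clone against 289.6 in the control clone (−0.97). By cluster the neighbours' medians were 0.18 around Hox A, −0.05 around Hox B, −0.20 around Hox C and 0.12 around Hox D. The other measured genes of the same chromosomes had medians of 0.00 for chromosome 6 (Hox A), 0.07 for chromosome 11 (Hox B), −0.12 for chromosome 15 (Hox C) and 0.11 for chromosome 2 (Hox D).

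**Figure D4:**
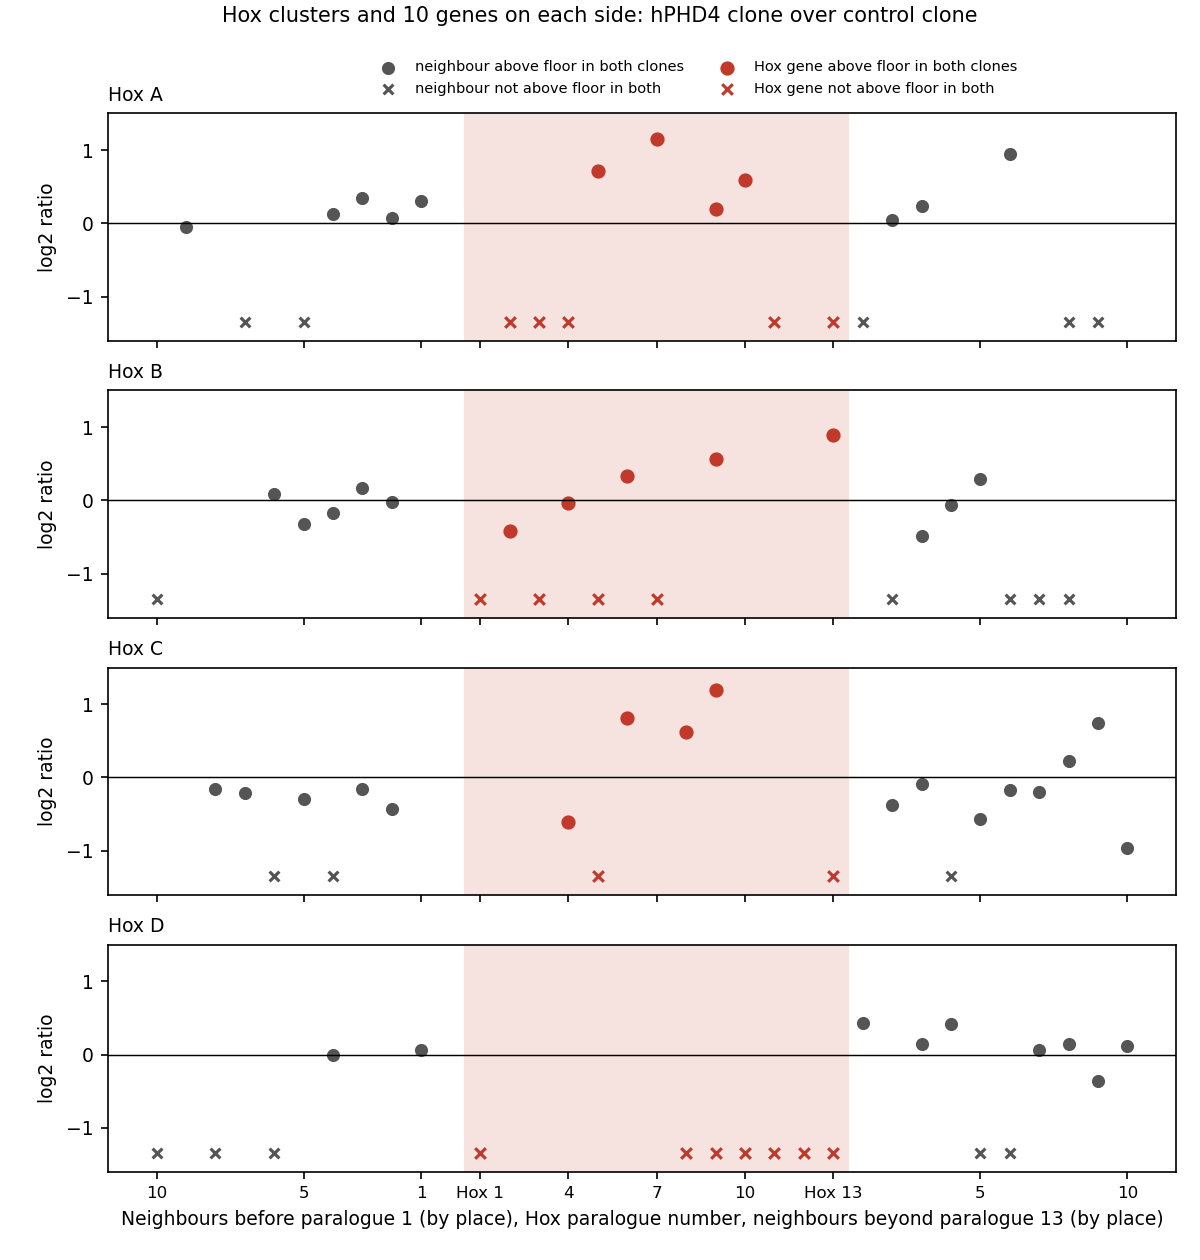
log2 ratio, hPHD4 clone over control clone, of measured Hox genes (red, shaded zone, by paralogue number) and of measured genes among the 10 neighbours on each side (grey, by place), 1 panel a cluster. Crosses at the bottom are genes not above the floor in both clones, with no ratio; in Hox D all 7 Hox genes are crosses while 9 neighbours carry a ratio.

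Among the cofactors of Hox proteins, 6 of 8 with a probe set were measured, where 60.1% of all genes on the array were. Their median log2 ratio was 0.12, with 1 past 1.5-fold upwards in the hPHD4 clone and 0 downwards. Over all measured genes, 8.94% passed 1.5-fold upwards and 5.22% downwards. The same shares stand beside the counts of the lists that follow, and with so few genes a list these counts were not tested. Pbx3, a homeodomain partner of Hox proteins, had signals of 571 in the hPHD4 clone against 330 in the control clone, a ratio of 0.79. Meis1 and Meis2 were near 0, at 0.07 and 0.16. Pbx2 and Pknox1 lay at −0.43 and −0.46, Pknox1 with probe sets at −0.93 and 0.01 that disagree.

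Of the Polycomb genes, which keep Hox clusters silent, 20 of 22 were measured at a median of 0.09, with 1 past 1.5-fold in each direction. Ring1, a subunit of the complex that marks histone H2A with ubiquitin, had the lowest ratio of the list on its only probe set, at 109 in the hPHD4 clone against 309 in the control clone (2.83-fold, the hPHD4 clone being lower). Its partner paralogue Rnf2 lay at 0.30, with probe sets at 0.50 and 0.11. Another probe set of Rnf2 was above the floor only in the control clone, at 74.1 in the hPHD4 clone against 95.1 in the control clone. Ezh1, a histone H3 methyltransferase, was at 0.62 with probe sets at 0.48 and 0.76, while Ezh2, Suz12 and Eed, the core of the same complex, were at 0.12, −0.03 and 0.40. Of the Trithorax genes and other activators, which keep Hox genes on, 13 of 14 were measured at a median of 0.08, with 2 past 1.5-fold upwards and 0 downwards. Men1, encoding menin, which brings MLL complexes to Hox genes, had 731 in the hPHD4 clone against 436 in the control clone, a ratio of 0.75 with probe sets at 0.72 and 0.77. Mllt3, an MLL fusion partner of the elongation machinery, was at 0.62, and Kmt2a, encoding MLL itself, at 0.39.

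Retinoic acid turns on Hox genes from the front of the clusters in embryos. In this pathway 8 of 15 genes were measured, at a median of 0.02, with 2 past 1.5-fold upwards in the hPHD4 clone and 0 downwards. Cyp26a1, which degrades retinoic acid, had 265 in the hPHD4 clone against 133 in the control clone, a ratio of 0.999, and Stra6, the cellular retinol importer, had 389 in the hPHD4 clone against 216 in the control clone, a ratio of 0.85. The receptor genes Rarg and Rxra lay at −0.44 and −0.52, Rxra with probe sets at −0.91 and −0.13, while the receptor gene Rxrb lay at 0.26. A second probe set of Rarg was above the floor only in the hPHD4 clone, at 84.2, with 53.7 in the control clone. The sign of this median depended on the processing: it was −0.16 after quantile normalization, −0.19 after loess, 0.23 with the floor at the 20th percentile and −0.44 at the 60th. Embryonic axial regulators were mostly dim: of 11 with a probe set, Gdf11 (0.26) and Evx2 were measured, and Cdx1, Cdx2 and Cdx4, direct activators of Hox genes, were under both floors.

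Factors that mark limb and regional mesenchyme were read beside the Hox genes, and no body position was inferred from them. Of 36 with a probe set, 11 were above the floor in both clones, 2 only in the hPHD4 clone, 5 only in the control clone and 18 in neither. Of all genes on the array, 60.1% were above it in both. Measured in both were the mesenchymal homeobox genes Prrx1 (1516 in the hPHD4 clone against 1264 in the control clone) and Prrx2, the forkhead gene Foxd1, Dlx5, Hand1, Tbx2, Tbx15, Msx1, Msx2, Lhx9 and Gli3. Tbx2, Msx2, Lhx9 and Gli3 were near the floors, at 83.6 to 98.2 in the hPHD4 clone and 73.0 to 82.9 in the control clone. Under both floors were Tbx5, of the forelimb, and Tbx4, of the hindlimb, and Pitx1, also of the hindlimb, was above the floor in the control clone alone, at 62.6 in the hPHD4 clone against 105 in the control clone. The 11 ratios ran from −0.53 (Msx1) to 0.34 (Tbx2), with 0 past 1.5-fold in either direction and a median of 0.17, which became 0.03 after quantile normalization and 0.00 after the loess correction.

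**Figure D5:**
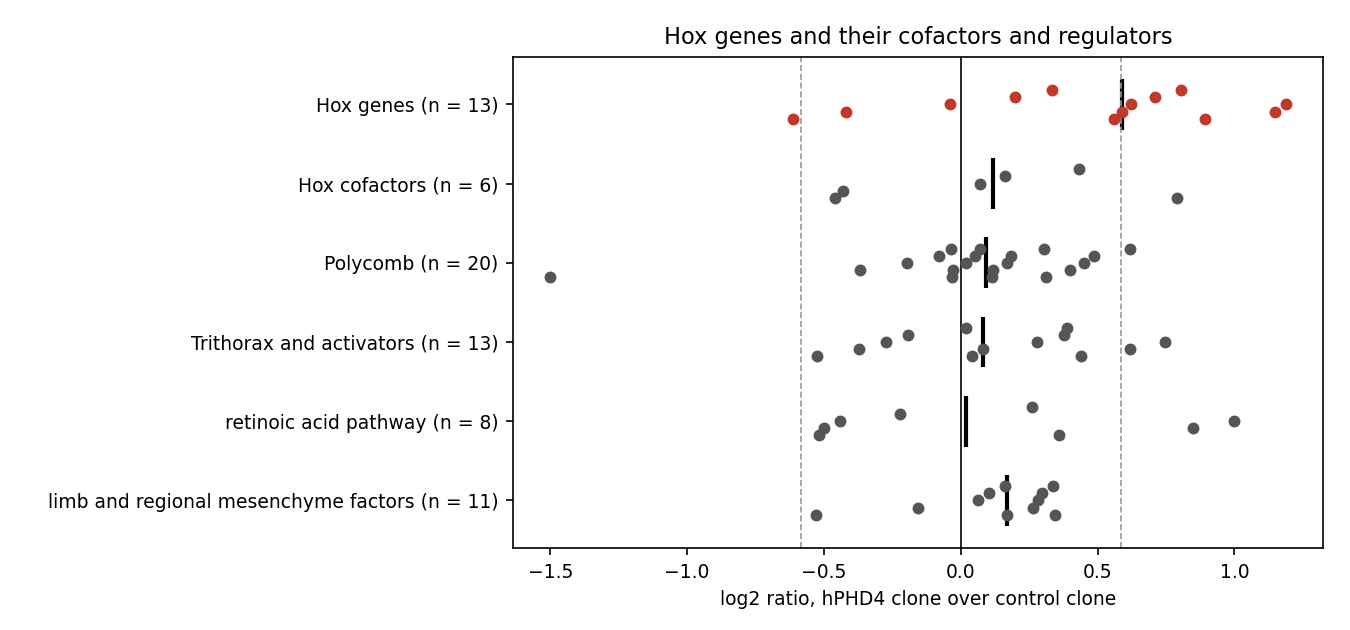
log2 ratio, hPHD4 clone over control clone, of each measured Hox gene (red) and of each measured gene in the lists of cofactors and regulators (grey). Bars are medians and dashed lines mark 1.5-fold. The Hox median of 0.59 lies to the right of the 5 list medians shown, between 0.02 and 0.17 (axial regulators, with 2 measured genes, are not drawn). This order did not hold for the cofactors at the 60th-percentile floor, where the Hox median was 0.20 and theirs 0.30. With no filter and 1 common floor it held for none of these lists. The Hox median was then 0, with cofactors at 0.035, Polycomb at 0.055 and Trithorax at 0.062. The retinoic acid and limb lists were also at 0.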

How the data were processed

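Expression data of 2 arrays were read from the deposited series table. The deposited values are on the log2 scale, 1 signal a probe set. Per the submitters' processing notes they come from MAS5, for which the sources used here give no version, settings or detection calls. The log2 base and a global scaling of each array were inferred from the values: taken as powers of 2 and trimmed by 2% at each end, the deposited signals averaged 498 (hPHD4 clone) and 497 (control clone). No further scaling was applied.

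Of 22690 probe sets, 64 were controls and 20380 carried 1 symbol; the 691 with more than 1 symbol and the 1555 without any were left out. The floor was the 40th percentile of non-control probe sets per array. A gene's ratio was the mean log2 ratio over its probe sets above the floor on both arrays. The SD of ratios between probe sets of 1 gene was pooled within 3 groups by mean signal. Every Hox gene is accounted for, and those above a floor are named. From each context list, up to 4 measured members past 1.5-fold with the largest ratios, and cluster neighbours past 1.5-fold, are named; other genes were named after their values were seen. The genes and lists were chosen with earlier results of these data known. Alternatives were quantile normalization, a loess correction (span 0.3), floors at the 20th and 60th percentile, no filter with 1 common floor, the brightest probe set, leaving out _x_at and _s_at probe sets, and folds of 1.5 and 3. The steps, apart from the setting with no filter, were tested on simulated data. The planted changes were larger than any Hox ratio here, and the noise was alike at all signals, with no shift between arrays. The simulation therefore does not cover changes of the size seen in the Hox genes. Promoters and miRNAs are from RefSeq (GRCm38.p6), matched by symbol; gene order is from the same assembly, and 20351 probe sets matched it by gene number. The number of arrays limits the precision. Python 3.11.15, pandas 2.3.3, scipy 1.17.1 and statsmodels 0.14.6 were used.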

Additional observations from a re-analysis of the deposited data

How the results depend on the processing

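No paired analysis was possible because each group holds 1 array. The count of 13 Hox genes above the floor in both clones was 20 under a floor at the 20th percentile and 3 under one at the 60th. Over all 12393 genes the count was 7452 as reported, 9613 under the lower floor and 5330 under the higher one. The 2 genes past 2-fold upwards became 7 at a threshold of 1.5-fold, 0 at 3-fold, 1 after quantile normalization, 1 after loess, 4 under the lower floor and 0 under the higher one, and the 0 genes past 2-fold downwards became 1 at 1.5-fold. The Hox median of 0.59 was 0.34 under the lower floor, 0.20 under the higher one and 0 with no filter, where most Hox genes are raised to the common floor. Under the lower floor the medians of Hox A and Hox B were 0.47 and 0.090, and with no filter those of Hox A, B and C were 0.017, 0 and 0.31. For single Hox genes measured in the analysis as reported, 80 of 81 values under the alternatives moved by less than the SD between probe sets over all genes (0.35) divided by the square root of the number of probe sets averaged. The other was Hoxc6, a mean of 2 probe sets, at 0.81 as reported and 1.12 under the lower floor, where its dimmest probe set enters; this move is within the SD of a single probe set. The sign of each of these 13 genes was the same under every alternative that gave a value. Of the 13, however, 11 had 1 measured probe set. For a gene with a single probe set, the lower floor and the choice of probe sets return the same value by construction. For most of these genes only quantile normalization and loess could move the value, so the count says little about the other alternatives. Over all genes, past 2-fold upwards and downwards were 141 and 73 as reported, 100 and 85 after quantile normalization, 103 and 85 after loess, 605 and 188 under the lower floor and 45 and 34 under the higher one. The split by paralogue number was noticed in the data and its alternatives were added afterwards. The lower floor admits dimmer probe sets by construction; for the other shifts the cause was not tested.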
